A study of Mus musculus with 6 samples.

Results

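The T cell receptor genes described here are the variable (V) segments and the constant genes of the alpha, beta, gamma and delta loci. They were taken by name from the deposited count table, as every gene whose symbol starts with Trav, Trbv, Trdv or Trgv and a digit, every gene whose symbol starts with Tcrg-, and Trac, Trbc1, Trbc2 and Trdc. The rule found 184 of 54525 genes, of which 129 belong to the alpha locus (128 V segments and Trac), 37 to the beta locus (35 V segments, Trbc1 and Trbc2), 11 to the gamma locus (7 V segments and 4 constant genes) and 7 to the delta locus (6 V segments and Trdc). RNA was sequenced from 3 ABAT cKO and 3 WT samples of naive CD4+ T cells, taken from spleen and lymph nodes of mice aged 6 to 8 weeks and activated for 36 h with plate-bound antibodies to CD3 and CD28 and with IL-2, with no polarizing cytokines (the TH0 condition). The ABAT cKO mice carry a floxed allele of Abat, the gene of 4-aminobutyrate aminotransferase, made from a EUCOMM allele with Flippase and deleted by Cre under the Cd4 promoter. The WT mice carry neither the floxed allele nor Cre as far as the sources used here say, the labels give C57BL/6N as the strain of all samples, and no source names littermates. The cells of each genotype came from separate animals and cultures, so effects of genotype and of culture cannot be told apart, and the p-values measure the spread between these 3 samples a group.

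A T cell builds each receptor chain in the thymus by joining a V segment to a joining (J) segment, with a diversity (D) segment between them in beta and delta chains, and the joined exon is then spliced to a constant gene. Conventional CD4+ T cells carry an alpha chain paired with a beta chain, whereas gamma delta T cells carry the other pair. The V segment supplies most of the surface that meets peptide and MHC molecule, so the share of transcripts that each V segment takes in a population, called its usage, describes the repertoire of that population. Cre under the Cd4 promoter becomes active in thymocytes that express CD4 and CD8, the stage at which the alpha locus rearranges and after the beta chain has been selected. In the mouse the delta locus lies inside the alpha locus, and segments named with the ending -dv can serve either chain.

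Counts over all genes summed to between 19566016 and 21772348 in the ABAT cKO libraries and between 20120057 and 24396746 in the WT libraries. Abat itself had 7, 3 and 2 counts in ABAT cKO libraries and 5, 1 and 0 counts in WT libraries, too few to check the labels. All 6 libraries expressed the defining genes of CD4+ T cells, and the summed level of 6 CD4 T cell markers ranged from 2216 to 2287 CPM (counts-per-million, on library sizes scaled by TMM) in ABAT cKO and from 2484 to 2526 CPM in WT. WT replicates 1 and 2 stood apart from WT replicate 3 in Cd8a. This gene, a chain of the CD8 coreceptor, had 18, 31 and 24 counts in ABAT cKO libraries against 268, 324 and 41 in WT libraries. The summed level of 6 B cell markers ranged from 98.4 to 102 CPM in ABAT cKO and from 239 to 258 CPM in WT, that of 5 NK cell markers from 17.5 to 21.3 CPM in ABAT cKO and from 5.61 to 24.04 CPM in WT, and that of 4 myeloid markers from 0.605 to 1.252 CPM in ABAT cKO and from 0.367 to 0.542 CPM in WT. The part of these cells in the results on receptor genes was not tested, and values without the WT libraries concerned stand beside the results they change. In bulk RNA, fewer cells that carry a receptor chain and less of its RNA per cell cannot be told apart.

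The receptor genes took 0.1103%, 0.118% and 0.112% of all gene counts in ABAT cKO libraries and 0.145%, 0.141% and 0.150% in WT libraries. Most of these counts lay on the 3 constant genes Trac, Trbc1 and Trbc2, since the reads of a receptor transcript that cover its constant exons are shared by all V segments. Of the 184 genes, 103 had at least 10 counts over the 6 libraries, 52 had 0 counts in every library, and 85 passed the filter on low counts and were tested. All 34 annotated V pseudogenes were kept among the members.

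Whether a V segment can be counted at all depends on how far its sequence differs from its copies. The central part of the mouse alpha locus exists in several near-identical copies, which carry the letters d and n in the segment names. In the GENCODE M21 transcripts, 42 members had no run of 75 bases that occurs in no other gene, and 33 of these had 0 counts in all libraries. Among the 142 members with such a run, 19 had 0 counts throughout, of which 13 were pseudogenes and 4 belonged to the gamma locus. In 17 pairs, 34 members in all, the transcripts were identical from end to end. Trav12d-1 and Trav12n-1 are such a pair and both had 0 counts, whereas Trav12-1, which differs from them at 15 of the last 250 bases, had 129 counts. The last 60 coding bases of these 3 segments on chromosome 14 (GRCm38, plus strand), with capitals at the base that differs, show how close the copies are.
Trav12d-1 (chr14:52844982-52845041): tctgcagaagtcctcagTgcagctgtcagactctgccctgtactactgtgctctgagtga
Trav12n-1 (chr14:53156029-53156088): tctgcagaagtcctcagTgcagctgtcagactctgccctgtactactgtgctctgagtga
Trav12-1 (chr14:53538679-53538738): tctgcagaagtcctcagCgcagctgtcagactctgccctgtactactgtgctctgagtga

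The Trav16 segments are shown because Trav16d-dv11 had the lowest fold change of all members tested, and its copies could exchange reads with it. Trav16d-dv11 and Trav16n differ at 2, and Trav16n and Trav16 at 3, of their last 250 bases. Capitals again mark the bases that differ within the set (chromosome 14, GRCm38, plus strand).
Trav16d-dv11 (chr14:53047762-53047821): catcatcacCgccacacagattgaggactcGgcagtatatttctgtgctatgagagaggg
Trav16n (chr14:53351562-53351621): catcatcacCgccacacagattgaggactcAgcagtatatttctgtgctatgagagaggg
Trav16 (chr14:53743646-53743705): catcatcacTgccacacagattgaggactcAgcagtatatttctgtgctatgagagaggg

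From Trav14, the most used alpha family, 4 segments are shown for the same reason. Trav14n-3 differs from Trav14-3 at 4, from Trav14d-3-dv8 at 8 and from Trav14-2 at 13 of the last 250 bases, and capitals mark the bases that differ among the 4 windows (chromosome 14, GRCm38, plus strand).
Trav14d-3-dv8 (chr14:53078986-53079045): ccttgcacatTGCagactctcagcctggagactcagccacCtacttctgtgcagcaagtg
Trav14n-3 (chr14:53370516-53370575): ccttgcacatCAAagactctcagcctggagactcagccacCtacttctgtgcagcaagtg
Trav14-2 (chr14:53641166-53641225): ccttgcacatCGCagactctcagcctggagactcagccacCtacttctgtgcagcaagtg
Trav14-3 (chr14:53763635-53763694): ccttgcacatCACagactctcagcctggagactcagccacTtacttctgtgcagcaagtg

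The beta V segments are mostly distinct, and the 5 whose usage the results turn on had only 75-base runs of their own. Trbv2 and Trbv29, for example, were identical at 44.4% of the last 250 bases. Their ends are shown with the codon of the conserved cysteine in capitals, the residue at which the CDR3 loop begins. The bases after it are where the V segment is trimmed and joined (chromosome 6, GRCm38, plus strand).
Trbv2 (chr6:41047936-41047995): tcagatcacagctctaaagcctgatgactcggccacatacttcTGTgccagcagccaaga
Trbv1 (chr6:40891826-40891885): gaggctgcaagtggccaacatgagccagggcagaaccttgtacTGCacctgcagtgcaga
Trbv29 (chr6:41271822-41271881): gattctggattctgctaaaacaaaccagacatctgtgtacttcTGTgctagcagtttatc
Trbv13-2 (chr6:41121773-41121832): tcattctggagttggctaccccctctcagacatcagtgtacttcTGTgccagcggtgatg
Trbv3 (chr6:41048769-41048828): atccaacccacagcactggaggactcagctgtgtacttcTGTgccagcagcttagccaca

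The constant gene of the alpha chain fell to 0.743 of its WT level in ABAT cKO cells, and both constant genes of the beta chain fell by less. Trac, the constant region of every alpha chain, had 314, 328 and 299 CPM in ABAT cKO and 417, 414 and 434 CPM in WT, and the groups did not overlap. Its log2 fold change was -0.43 (SE 0.05, edgeR quasi-likelihood test, Benjamini-Hochberg adjusted p = 6.31e-05). Trbc2, the constant gene of the second cluster of beta D and J segments, had 362, 388 and 380 CPM in ABAT cKO and 475, 461 and 473 CPM in WT. It fell by 0.32 on the log2 scale (SE 0.04, edgeR adjusted p = 0.000263), with all 3 ABAT cKO libraries below all WT libraries. Trbc1, that of the cluster before it, had 179, 198 and 193 CPM in ABAT cKO and 218, 207 and 219 CPM in WT, with a log2 fold change of -0.17 (SE 0.05, edgeR adjusted p = 0.0218). This did not pass under 5 of 15 alternatives. The call for Trbc1 was lost without WT replicate 1 (adjusted p = 0.0880), without WT replicate 3 (adjusted p = 0.0563), without WT replicates 1 and 2 together (adjusted p = 0.126), and on a scale set by the spike-in RNA (adjusted p = 0.206).

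Because Trbc2 differed more between genotypes than Trbc1, the share of Trbc1 in the sum of both was 33.1%, 33.8% and 33.7% in ABAT cKO libraries and 31.5%, 31.0% and 31.7% in WT libraries. The difference of 2.20 percentage points (33.6% ± 0.377 and 31.4% ± 0.341, SD, n = 3 each) had an exact two-sided permutation p of 0.10, the smallest that 3 samples against 3 can give. The genes differ at 1 of the 375 bases of exon 1, shown in capitals within 60 coding bases (chromosome 6, GRCm38, plus strand), so reads that lie within this exon can hardly be assigned, and 64.9% of the 75-base runs of Trbc1 and 62.3% of those of Trbc2 were their own.
Trbc1 (chr6:41538447-41538506): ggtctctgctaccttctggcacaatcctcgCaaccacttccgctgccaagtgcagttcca
Trbc2 (chr6:41546959-41547018): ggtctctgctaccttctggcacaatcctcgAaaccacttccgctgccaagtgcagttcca

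Summed over each locus, alpha and beta counts were lower and gamma and delta counts higher in ABAT cKO libraries, in each case without overlap between the groups. Alpha counts came to 405 ± 14.9 CPM in ABAT cKO and 542 ± 14.2 CPM in WT (SD, n = 3 each), a difference of -0.42 on the log2 scale. Beta counts came to 733 ± 26.5 CPM in ABAT cKO and 888 ± 18.3 CPM in WT, a log2 difference of -0.28. Gamma counts were 2.19 ± 0.455 CPM in ABAT cKO and 0.629 ± 0.175 CPM in WT, a log2 difference of 1.82, and delta counts were 7.33 ± 0.501 CPM in ABAT cKO and 3.95 ± 0.912 CPM in WT, a log2 difference of 0.92. The exact two-sided permutation p was 0.10 for each of the 4 loci, the smallest possible, and 0.10 after Benjamini-Hochberg adjustment. Trac counts per 100 counts of Trbc1 plus Trbc2 were 58.0, 55.8 and 52.2 in ABAT cKO and 60.2, 62.0 and 62.8 in WT (exact permutation p = 0.10), so the alpha constant gene was lower relative to the beta ones in every ABAT cKO library.

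**Figure D1:**
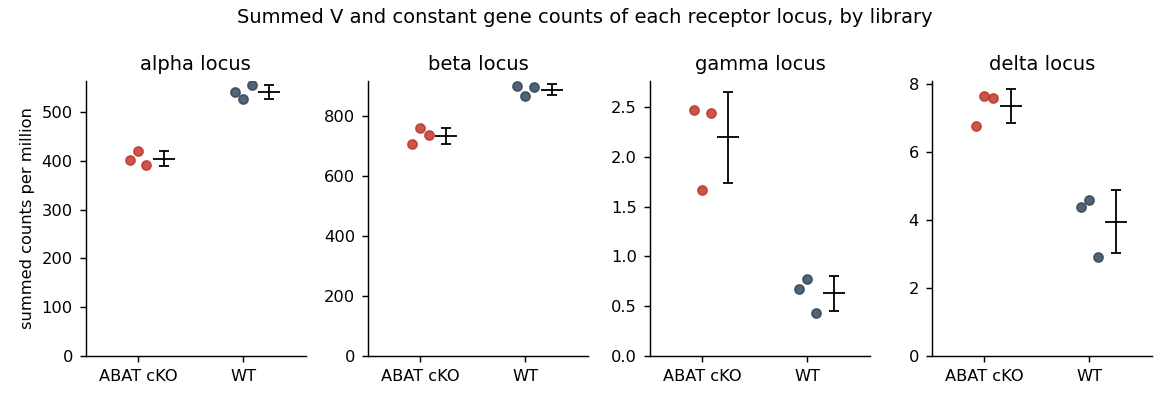
Summed CPM of V segments and constant genes of each receptor locus, 1 point per library, with the mean and SD beside them (n = 3 each). The ABAT cKO points lie below all WT points for the alpha and beta loci and above all WT points for the gamma and delta loci.

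The V segments were counted in a like proportion to their constant genes in both genotypes. V counts per 100 counts of the constant gene were 28.0, 28.6 and 31.0 in ABAT cKO and 30.003, 27.3 and 27.9 in WT for the alpha locus, and 30.3, 29.1 and 28.7 in ABAT cKO and 29.8, 29.7 and 29.7 in WT for the beta locus. The groups overlapped at both loci (exact permutation p = 0.5 and 0.4). V pseudogenes took 1.49% ± 0.312 of Trav counts in ABAT cKO and 1.38% ± 0.309 in WT, and 0.345% ± 0.0319 of Trbv counts in ABAT cKO and 0.284% ± 0.0440 in WT, again with overlap.

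Gene by gene, 17 of the 85 receptor genes tested were lower and 2 were higher in ABAT cKO cells at an adjusted p under 0.05. Over all 13605 genes tested, 13.4% were lower and 18.1% were higher. The fold change was below 0 for 73 of the 85 and above 0 for 12, with a median of -0.37 on the log2 scale against 0.0046 over all genes. The CPM values of the groups did not overlap for 40 genes that were lower and 2 that were higher in ABAT cKO, where 20.5% and 25.4% of all genes tested did so. The calls were uneven between the loci. In the beta locus 10 of 23 genes passed the test, all lower, and in the alpha locus 7 of 59, although the median log2 fold change of the alpha genes (-0.43, range -1.36 to 0.52) was not closer to 0 than that of the beta genes (-0.33, range -0.80 to 0.10). Alpha V segments had far lower counts each, up to 14.2 CPM per kilobase of exon, against up to 65.0 CPM per kilobase for beta V segments. Without WT replicates 1 and 2 together, an alternative chosen after seeing the data that leaves a single WT library assumed to vary like the others, 7 receptor genes were lower and 2 were higher. The 7 were Trac, Trbc2, Trbv3, Trbv13-3, Trbv16, Trbv29 and Trbv31.

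**Figure D2:**
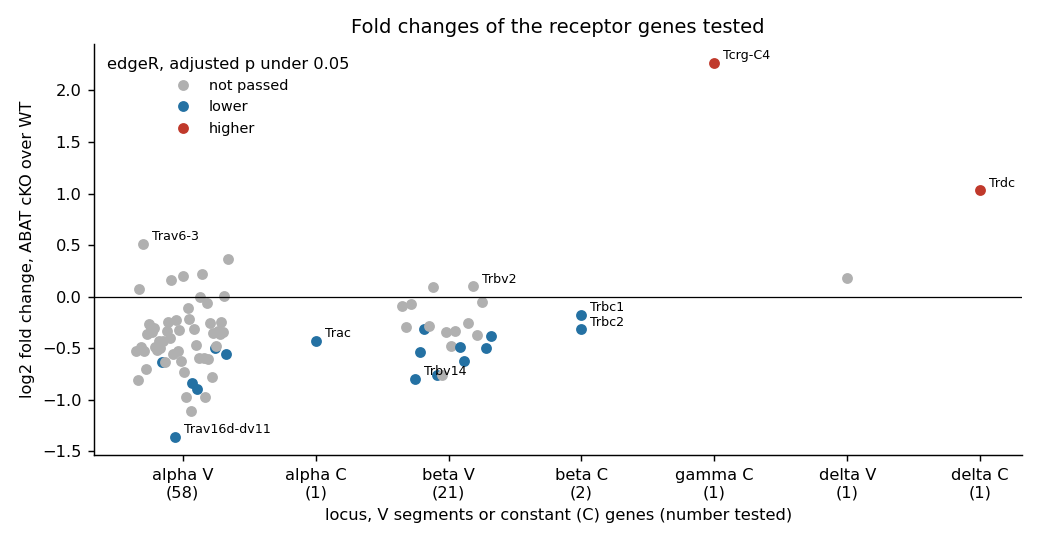
Log2 fold change, ABAT cKO over WT, of the 85 receptor genes tested, in columns by locus and by V segment or constant gene, coloured by the edgeR call at an adjusted p under 0.05. Most alpha and beta genes lie below 0, Trav16d-dv11 lowest at -1.36, and the called genes above 0 are Tcrg-C4 and Trdc.

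Trbv3, the second most abundant beta V segment per length, was the clearest of the high ones to fall. It had 19.1, 20.5 and 19.3 CPM in ABAT cKO and 31.2, 27.5 and 24.6 CPM in WT. WT replicate 3 was the lowest of the WT libraries and still above every ABAT cKO library, and the log2 fold change was -0.50 (SE 0.09, edgeR adjusted p = 0.00147). Trbv31, which lies beyond the constant genes in inverted orientation, had 15.4, 16.1 and 15.6 CPM in ABAT cKO and 19.9, 19.4 and 22.2 CPM in WT (log2 fold change -0.38, SE 0.07, edgeR adjusted p = 0.00237). Trbv29 had 3.88, 3.89 and 2.91 CPM in ABAT cKO and 5.46, 6.29 and 6.34 CPM in WT, and Trbv14 had 2.02, 2.04 and 2.18 CPM in ABAT cKO and 3.52, 3.92 and 3.39 CPM in WT. These 2 had the largest decreases among the called beta genes, -0.75 (SE 0.15, adjusted p = 0.00398) and -0.80 (SE 0.17, adjusted p = 0.00603) on the log2 scale in edgeR's test, with no overlap between the groups. The call for Trbv14 was lost without WT replicates 1 and 2 together (adjusted p = 0.1398), and that for Trbv29 was not. Trbv13-3, Trbv15, Trbv16 and Trbv19 also fell, by 0.49, 0.62, 0.54 and 0.31 on the log2 scale. The call for Trbv15 was lost without WT replicates 1 and 2 together (adjusted p = 0.0508). The call for Trbv19 was lost without ABAT cKO replicate 3 (adjusted p = 0.0523), without WT replicate 2 (adjusted p = 0.0514) and without WT replicates 1 and 2 together (adjusted p = 0.0771).

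Other abundant beta segments did not pass the test. Trbv13-2, the most abundant V segment per length, had 20.4, 22.0 and 22.2 CPM in ABAT cKO and 23.7, 22.0 and 22.3 CPM in WT, and the groups overlapped (log2 fold change -0.07, SE 0.06, edgeR adjusted p = 0.421). Trbv1 had 15.7, 17.6 and 17.5 CPM in ABAT cKO and 18.7, 17.5 and 18.0 CPM in WT (log2 fold change -0.09, SE 0.07, adjusted p = 0.378). Trbv2 was above 0, with 21.8, 22.5 and 17.0 CPM in ABAT cKO and 18.1, 19.6 and 19.6 CPM in WT (log2 fold change 0.10, SE 0.10, adjusted p = 0.503). ABAT cKO replicate 3 was the lowest of the 6 libraries for Trbv2 and the other 2 ABAT cKO libraries were the highest. Trbv13-1, a neighbour of Trbv13-2, had 7.21, 8.81 and 10.4 CPM in ABAT cKO and 11.2, 10.3 and 11.7 CPM in WT, which did not pass (log2 fold change -0.33, SE 0.13, adjusted p = 0.0691) but did without ABAT cKO replicate 3 (adjusted p = 0.0184).

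Of the 58 alpha V segments tested, 6 (10.3%) were called lower, where 13.4% of all genes tested were lower. Among these 6 calls, 3 were of the Trav14 family and 2 of the Trav16 family, whose near-identical copies could exchange reads. Trav14d-3-dv8 had 2.82, 2.18 and 2.44 CPM in ABAT cKO and 4.56, 4.86 and 4.40 CPM in WT, a log2 fold change of -0.89 (SE 0.16, edgeR adjusted p = 0.00207). Trav14-2 had 3.03, 3.57 and 3.74 CPM in ABAT cKO and 5.73, 5.18 and 5.13 CPM in WT, a log2 fold change of -0.63 (SE 0.14, adjusted p = 0.00740). Trav14n-3, the second most abundant alpha segment per length, had 4.79, 3.62 and 3.69 CPM in ABAT cKO and 6.00, 5.27 and 5.86 CPM in WT. Its decrease of 0.50 on the log2 scale (SE 0.15, adjusted p = 0.0289) was lost as a call without ABAT cKO replicate 2, ABAT cKO replicate 3 or WT replicate 1 (adjusted p = 0.1101, 0.0736 and 0.1001), and with DESeq2 (adjusted p = 0.0684). All 3 calls were lost without WT replicates 1 and 2 together, with an adjusted p of 0.0713 for Trav14d-3-dv8, 0.1399 for Trav14-2 and 0.158 for Trav14n-3. In all 3 segments every ABAT cKO library lay below every WT library. The other 2 Trav14 segments tested did not pass. They were Trav14-3, with 3.83, 4.03 and 3.38 CPM in ABAT cKO and 5.42, 4.24 and 4.40 CPM in WT, and Trav14-1. The remaining 4 copies of the family had 0 counts in every library and no 75-base run of their own.

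Trav16d-dv11, which can also serve the delta chain, had 0.403, 0.464 and 0.260 CPM in ABAT cKO and 0.857, 1.10 and 0.968 CPM in WT, a log2 fold change of -1.36 (SE 0.33, edgeR adjusted p = 0.0107). Its call was lost without WT replicate 2 (adjusted p = 0.0518), without ABAT cKO replicate 3 (adjusted p = 0.050001), without WT replicates 1 and 2 together (adjusted p = 0.162) and with DESeq2 (adjusted p = 0.0662). Trav16n had 1.1596, 1.95 and 0.988 CPM in ABAT cKO and 2.62, 2.20 and 2.57 CPM in WT, a log2 fold change of -0.84 (SE 0.27, edgeR adjusted p = 0.0408). Its call was lost under 9 of 15 alternatives. With 1 library left out, that call held only when it was ABAT cKO replicate 2, and the adjusted p ranged from 0.0721 to 0.126 without each of the other 5. It was also lost with DESeq2 (adjusted p = 0.0665), without WT replicate 3 and ABAT cKO replicate 1 together (adjusted p = 0.0605) and without WT replicates 1 and 2 together (adjusted p = 0.214). Reads could be exchanged between these segments and Trav16, whose log2 fold change of -0.52 (SE 0.32, adjusted p = 0.252) also lay below 0. Trav7-4, with 2.77, 3.20 and 3.22 CPM in ABAT cKO and 4.87, 4.204 and 4.50 CPM in WT, was the last alpha segment called (log2 fold change -0.56, SE 0.15, edgeR adjusted p = 0.0180). Its call was lost under 4 of 15 alternatives. Among them were leaving out WT replicate 1 (edgeR adjusted p = 0.0778), DESeq2 (adjusted p = 0.0657) and leaving out WT replicates 1 and 2 together.

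The other abundant alpha segments did not pass. Trav4-4-dv10, the most abundant alpha segment per length, had 4.03, 4.82 and 4.52 CPM in ABAT cKO and 6.27, 5.35 and 5.66 CPM in WT, without overlap (log2 fold change -0.37, SE 0.13, edgeR adjusted p = 0.0627). Trav3-3 had 4.39, 5.70 and 4.52 CPM in ABAT cKO and 4.83, 5.76 and 5.23 CPM in WT, Trav13-1 had 3.38, 2.64 and 2.86 CPM in ABAT cKO and 3.75, 3.88 and 3.53 CPM in WT, and Trav7-5 had 2.07, 3.01 and 3.02 CPM in ABAT cKO and 3.70, 2.73 and 3.58 CPM in WT. Their log2 fold changes were -0.11, -0.33 and -0.30, with SE 0.15, 0.17 and 0.21. The groups overlapped for Trav3-3 and Trav7-5 and not for Trav13-1.

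Usage sets aside the level of the locus and asks how its counts were divided. Segments were summed to families, which joins the counts of near-identical copies, and the count of a family was tested against the V counts of its locus in the same library. Summing cannot bring back reads that were dropped between copies. Of the 41 alpha members with no 75-base run of their own, 32 had 0 counts in every library. Of 54 Trav and Trbv families, 35 were tested. Trbv2 and Trbv1 took a larger share and Trbv29 a smaller share of Trbv counts in ABAT cKO cells. No Trav family passed the test in either direction. In the table these families were tested in, which also holds all other genes, 17.2% of 13561 rows were higher and 14.3% were lower in ABAT cKO. Each of the 3 calls was lost when certain single libraries were left out, and without WT replicates 1 and 2 together the adjusted p was 0.139 for Trbv2, 0.211 for Trbv1 and 0.169 for Trbv29.

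Trbv2 took 13.3%, 13.1% and 10.3% of Trbv counts in ABAT cKO libraries and 8.77%, 9.88% and 9.52% in WT libraries. Every ABAT cKO library was above every WT library, but the share in ABAT cKO replicate 3 (10.3%, Wilson 95% interval 9.31% to 11.4%) overlapped that in WT replicate 2 (9.88%, 9.07% to 10.7%) within counting error. The log2 ratio of usage was 0.39 (SE 0.10, edgeR adjusted p = 0.0116), and the call was lost without ABAT cKO replicate 2 (adjusted p = 0.0616) and without WT replicate 1 (adjusted p = 0.0574). Trbv1 took 9.56%, 10.3% and 10.7% in ABAT cKO and 9.06%, 8.79% and 8.77% in WT, a log2 ratio of 0.20 (SE 0.07, edgeR adjusted p = 0.0478). With 1 library left out, the call for Trbv1 held only when it was ABAT cKO replicate 1, and the adjusted p ranged from 0.0846 to 0.153 without each of the others. It was also lost as a share of all locus counts (adjusted p = 0.0519) and without the filter on low counts (adjusted p = 0.0924). Trbv29 took 2.37%, 2.28% and 1.77% in ABAT cKO and 2.65%, 3.16% and 3.09% in WT, a log2 ratio of -0.47 (SE 0.15, edgeR adjusted p = 0.0416). With 1 library left out it too held only without ABAT cKO replicate 1, with an adjusted p between 0.0522 and 0.133 without each of the others. With single segments in place of families, the higher ones were Trbv2, Trbv1, Trbv13-2 and Trav6-3 and the lower one was Trbv29. Trbv13-2 then took 12.4%, 12.8% and 13.5% of Trbv counts in ABAT cKO and 11.5%, 11.1% and 10.8% in WT. Trav6-3 took 1.603%, 1.98% and 1.29% of Trav counts in ABAT cKO and 0.973%, 0.795% and 0.838% in WT. Only 14.0% of the 75-base runs of Trav6-3 were its own and it shared others with Trav6d-3, so reads could be exchanged between them. The Trav6 family as a whole did not pass (log2 ratio 0.06, SE 0.09, edgeR adjusted p = 0.648).

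Trbv13, with 3 segments, led the beta families in both genotypes, with 21.8% ± 1.42 in ABAT cKO and 20.7% ± 0.344 in WT (SD, n = 3 each). Trbv3 took 11.6%, 12.01% and 11.8% of Trbv counts in ABAT cKO and 15.1%, 13.8% and 11.99% in WT. The usage of Trbv3 overlapped between the groups through WT replicate 3, and its log2 ratio of -0.21 did not pass (SE 0.08, edgeR adjusted p = 0.0807). Trbv31 took 9.42% ± 0.0485 in ABAT cKO and 10.1% ± 0.646 in WT. Trbv12, which holds the beta segment of the OT-II transgenic receptor used elsewhere in the study, took 4.12%, 4.53% and 4.88% in ABAT cKO and 4.62%, 4.64% and 4.76% in WT, and Trbv20 took 3.61% ± 0.227 in ABAT cKO and 3.60% ± 0.156 in WT. Of the 18 Trbv families tested, 15 did not pass.

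**Figure D3:**
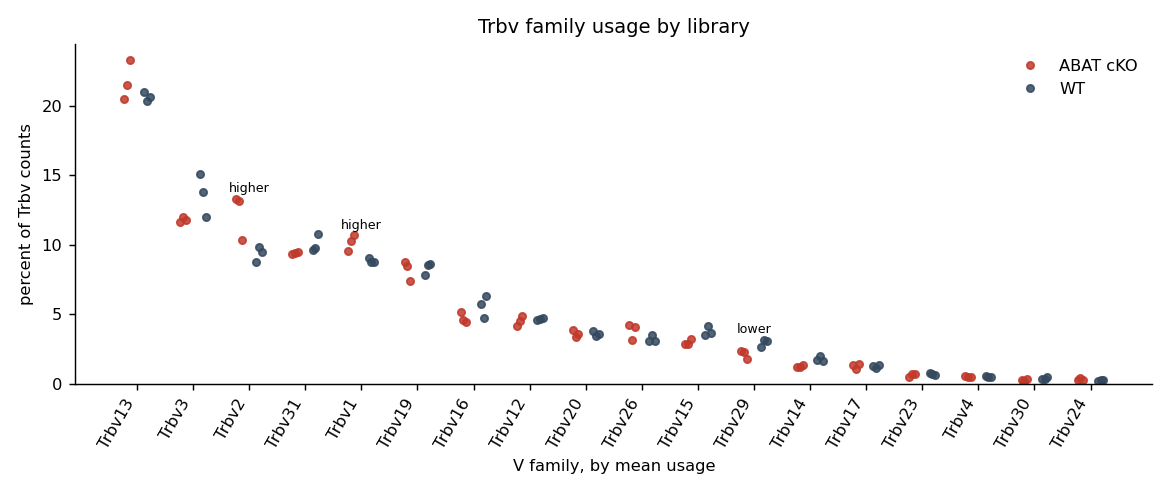
Share of each tested Trbv family in the Trbv counts of a library, in percent, 1 point per library, families ordered by mean share, with calls of the usage test written above the points. Trbv2 and Trbv1 are higher and Trbv29 is lower in ABAT cKO, and Trbv3 spreads from 11.99% to 15.1% among the WT libraries.

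Among the 17 alpha families tested, Trav14 was the most used. It took 19.5%, 17.1% and 16.3% of Trav counts in ABAT cKO and 19.96%, 19.9% and 19.7% in WT. The WT libraries were nearly equal and ABAT cKO replicate 1 was close to them, and the log2 ratio of -0.17 did not pass (SE 0.07, edgeR adjusted p = 0.1004). Without ABAT cKO replicate 1 it did (log2 ratio -0.25, adjusted p = 0.0180). Trav14 holds the alpha segment of the OT-II receptor. Trav16 took 3.72%, 3.41% and 2.47% in ABAT cKO and 4.29%, 4.15% and 4.39% in WT (log2 ratio -0.42, SE 0.17, adjusted p = 0.0934). On the other side of 0 were Trav19, with 1.26%, 1.29% and 0.897% in ABAT cKO and 0.865%, 0.650% and 0.519% in WT (log2 ratio 0.75, SE 0.31, adjusted p = 0.0909), and Trav15, with 1.94% ± 0.331 in ABAT cKO and 1.33% ± 0.240 in WT (log2 ratio 0.54, SE 0.25, adjusted p = 0.129). Trav7, Trav9, Trav6 and Trav4, the next most used families, differed by no more than 0.11 on the log2 scale, with adjusted p between 0.410 and 0.912.

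**Figure D4:**
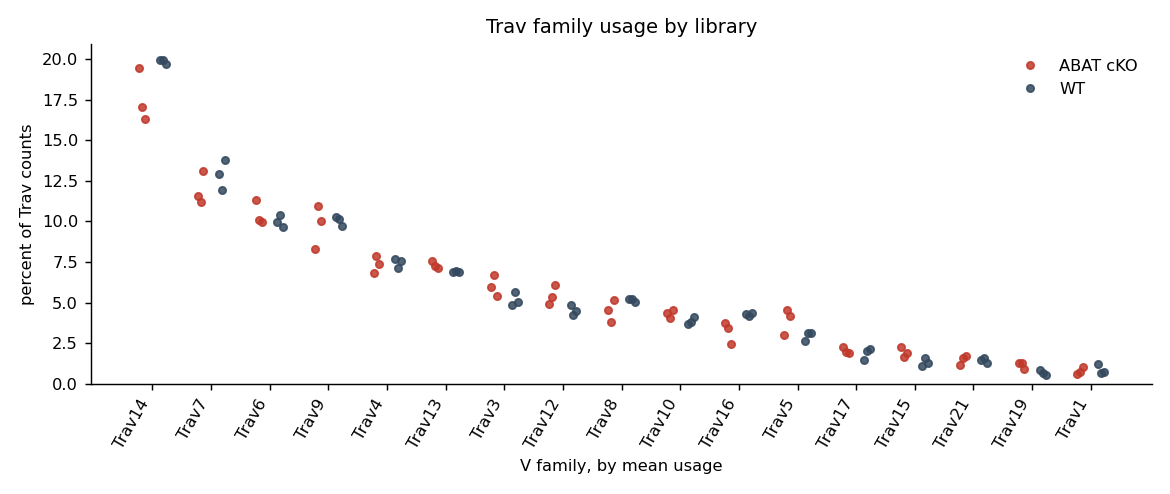
Share of each tested Trav family in the Trav counts of a library, in percent, 1 point per library, families ordered by mean share. None of the 17 families passed the usage test, and Trav14 lies between 16.3% and 19.5% in ABAT cKO and between 19.7% and 19.96% in WT.

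The alpha segments of invariant T cells were rare. Trav11 joins a fixed J segment in invariant NKT cells, which recognize lipids. Trav1 does so in MAIT cells, which recognize microbial metabolites. Trav11 has 3 copies, of which Trav11 and Trav11d share all their 75-base runs and had 1 and 2 counts in all. The family had 6, 5 and 4 counts in ABAT cKO libraries and 1, 6 and 3 counts in WT libraries, or 0.343%, 0.247% and 0.224% of Trav counts against 0.0360%, 0.217% and 0.120%, and was too low to be tested in the fit. The shares did not overlap (exact permutation p = 0.10), but the counts did. The nearest shares were 0.224% in ABAT cKO replicate 3 and 0.217% in WT replicate 2, and the Trav counts they are taken of were fewer in ABAT cKO libraries. Most of these counts lay on Trav11n, which the annotation gives as a pseudogene and which had 5, 4 and 4 counts in ABAT cKO and 1, 6 and 2 counts in WT. Zbtb16, a transcription factor listed here as a marker of invariant NKT cells, had 9, 10 and 23 counts in ABAT cKO and 5, 6 and 7 counts in WT and was not tested. Klrb1c, a receptor of NK and invariant NKT cells, had 17, 22 and 18 counts in ABAT cKO and 2, 6 and 5 counts in WT and rose (log2 fold change 2.25, SE 0.39, edgeR adjusted p = 0.00162). Traj18, the J segment that Trav11 joins in invariant NKT cells, had 23, 6 and 6 counts in ABAT cKO and 17, 24 and 13 counts in WT. Its log2 fold change of -0.46 did not pass (SE 0.51, edgeR adjusted p = 0.549), and the groups overlapped. Trav1 took 0.630%, 0.741% and 1.07% of Trav counts in ABAT cKO and 1.23%, 0.686% and 0.758% in WT, with overlap.

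The evenness of usage was measured by the effective number of segments, the exponential of the Shannon entropy of the shares, which equals the number of segments if all are used alike. For the beta locus it was 14.4, 14.2 and 14.8 in ABAT cKO and 15.0, 15.1 and 15.3 in WT, lower in every ABAT cKO library by 0.654 on average (exact permutation p = 0.10). For the alpha locus it was 49.7, 47.8 and 50.4 in ABAT cKO and 49.2, 49.3 and 49.9 in WT (exact permutation p = 0.9), with the WT libraries inside the range of the ABAT cKO ones. The distance between libraries, as the percent of V counts that would have to move between families to make 2 libraries alike, was 6.19% to 7.36% between genotypes for the beta locus, 3.15% to 6.21% within ABAT cKO and 3.79% to 4.44% within WT. For the alpha locus it was 4.92% to 7.82% between genotypes, 5.47% to 8.11% within ABAT cKO and 3.09% to 3.32% within WT, so the genotypes lay no further apart than the ABAT cKO libraries did among themselves. WT libraries were deeper in V counts, with 2506 to 2775 Trav counts against 1747 to 2023 in ABAT cKO, and a shallower library carries more counting error into such a distance.

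Position along the alpha locus was not used in choosing the genes. In developing thymocytes the alpha locus can rearrange repeatedly, moving to V segments further from the constant gene. The 128 Trav segments lie from 242.8 kb (Trav23) to 1791.6 kb (Trav1) from Trac, and the 64 nearest reach to 981 kb. Of the segments with 0 counts throughout, 12 were among the near 64 and 28 among the far 64, which hold most of the duplicated copies. The near 64 took 81.2%, 84.9% and 80.4% of Trav counts in ABAT cKO and 79.9%, 80.1% and 80.2% in WT. ABAT cKO libraries were higher by 2.12 percentage points (exact permutation p = 0.10), but ABAT cKO replicate 2 stood above the rest, and the difference was 0.772 points without it. The nearest 32 segments took 50.5%, 53.6% and 51.0% in ABAT cKO and 47.7%, 49.2% and 47.7% in WT, a difference of 3.50 percentage points (exact permutation p = 0.10) with no overlap.

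The gamma and delta genes ran the other way from alpha and beta, at levels near the limit of counting. Together they made up 0.826%, 0.784% and 0.881% of all receptor counts in ABAT cKO and 0.349%, 0.382% and 0.229% in WT (exact permutation p = 0.10). Trdc, the only constant gene of the delta chain, had 110, 130 and 117 counts in ABAT cKO libraries and 70, 85 and 40 counts in WT libraries, or 5.55, 6.03 and 6.09 CPM against 3.16, 3.47 and 1.94 CPM. It rose by a log2 fold change of 1.03 (SE 0.20, edgeR adjusted p = 0.00279). Tcrg-C4, a constant gene of the gamma chain on chromosome 13, had 21, 19 and 22 counts in ABAT cKO and 9, 3 and 2 counts in WT, a log2 fold change of 2.27 (SE 0.46, edgeR adjusted p = 0.00403). Both calls held without each library in turn and without WT replicates 1 and 2 together. WT replicate 3, the WT library lowest in Cd8a and B cell genes, was also the lowest for Trdc and Tcrg-C4.

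The remaining gamma and delta genes were too low for the main test except Trdv1. The constant gene Tcrg-C1 had 4, 4 and 7 counts in ABAT cKO libraries and 0, 3 and 1 counts in WT libraries. Tcrg-C2 had 13, 9 and 11 counts in ABAT cKO libraries and 4, 10 and 3 counts in WT libraries. The raw counts of Tcrg-C2 overlapped, but its CPM did not, with 0.655, 0.417 and 0.572 CPM in ABAT cKO and 0.181, 0.408 and 0.145 CPM in WT. Relative to depth, the summed counts were 4.16 times those of WT for Tcrg-C1 (exact 95% interval 1.33 to 17.2, counting error only) and 2.15 times for Tcrg-C2 (1.17 to 4.13). Tcrg-C3 had 0 counts throughout. Trgv2 was the only gamma V segment with more than 5 counts in all, at 9, 4 and 7 in ABAT cKO and 0, 2 and 0 in WT, a ratio of 11.1 (exact interval 2.697 to 98.0). Trgv2 and Tcrg-C2 both lie on the minus strand of chromosome 13. Without the filter on low counts, edgeR called Trgv2 higher (adjusted p = 0.00323) and also Trdv5 (adjusted p = 0.0419). The end of Trgv2 has the conserved cysteine codon, in capitals, as the beta segments do (minus strand, GRCm38).
Trgv2 (chr13:19336573-19336632): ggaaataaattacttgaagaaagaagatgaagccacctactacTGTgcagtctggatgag

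Trdv1, the most counted delta V segment, had 12, 21 and 15 counts in ABAT cKO and 17, 18 and 12 counts in WT (log2 fold change 0.18, SE 0.31, edgeR adjusted p = 0.712). Trdv2-2 had 4, 4 and 6 counts in ABAT cKO and 7, 9 and 6 counts in WT, a ratio of 0.707 (exact interval 0.334 to 1.44). Trdv5 had 4, 9 and 7 counts in ABAT cKO and 3, 0 and 2 counts in WT, but its exon overlaps that of Trdc, and without a stated strand setting reads of these genes cannot be told apart. Trdv4 had 2, 1 and 1 counts in ABAT cKO and 0 in all WT libraries. Summed over delta V segments the level was 1.45 ± 0.213 CPM in ABAT cKO and 1.10 ± 0.125 CPM in WT, with overlap (exact permutation p = 0.2), so most of the difference in the delta sum lay in Trdc. Tcrg-V1 went the other way with 0 counts in all ABAT cKO libraries and 2, 1 and 2 in WT libraries. Tcrg-V3, Tcrg-V5 and Tcrg-V7 had 0 counts in every library, and Tcrg-V4, Tcrg-V6, Trdv2-1 and Trdv3 had at most 1 count in any library.

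**Figure D5:**
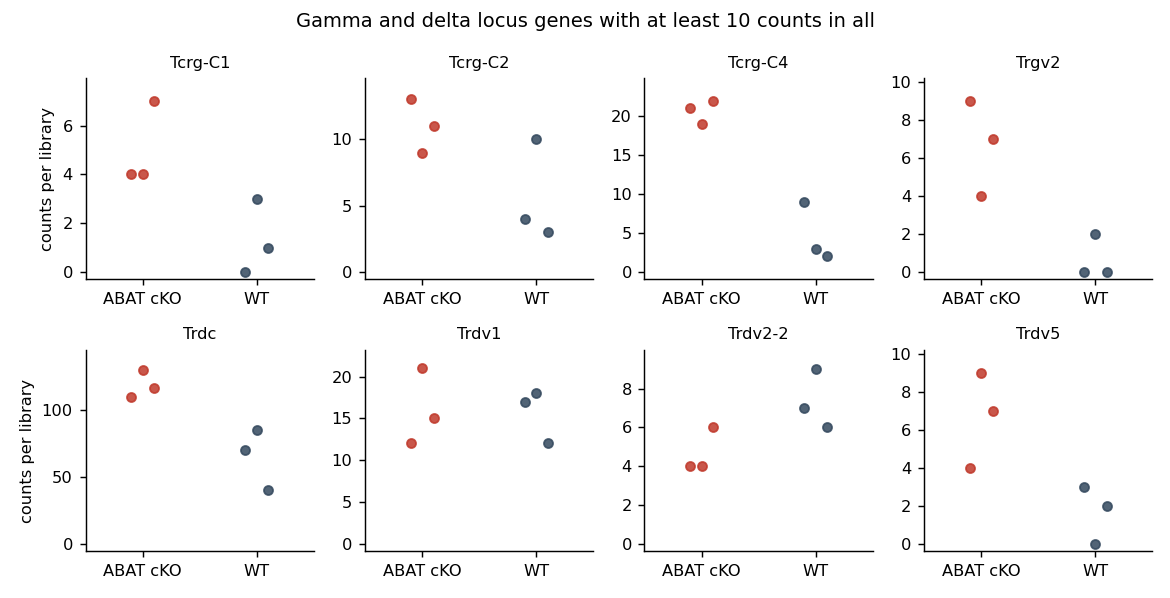
Counts per library of the gamma and delta locus genes with at least 10 counts over the 6 libraries, each panel with its own axis. Tcrg-C1, Tcrg-C4, Trgv2, Trdc and Trdv5 are higher in every ABAT cKO library than in any WT library, whereas the raw counts of Tcrg-C2 and Trdv1 overlap, those of Tcrg-C2 no longer once scaled to CPM, and Trdv2-2 is not higher in ABAT cKO.

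Genes of other cells that can carry or transcribe gamma and delta genes moved in both directions beside these. Of 4 further gamma delta T cell markers, Sox13, a transcription factor of that lineage, was tested and rose, with 38, 31 and 25 counts in ABAT cKO and 15, 15 and 10 counts in WT (log2 fold change 1.38, SE 0.29, edgeR adjusted p = 0.00494). The other 3 had 0 to 4 counts in every library, except Blk, which had 1, 0 and 1 counts in ABAT cKO and 11, 22 and 1 in WT. Of the 5 NK cell markers, Ncr1, Klrb1c and Gzma rose and Eomes fell. Ncr1, a receptor of NK cells, had 24, 28 and 12 counts in ABAT cKO and 4, 11 and 0 counts in WT. Gzma, a granule protease, had 229, 272 and 292 counts in ABAT cKO and 20, 42 and 8 counts in WT. Their part in the levels of Trdc and Tcrg-C4 was not tested.

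The receptor chains reach the surface only with the CD3 chains and signal beside a coreceptor, so these genes were read beside the members. Of the 7 tested genes of this group, 5 fell and 2 did not pass, with a median log2 fold change of -0.24. Over all genes tested, 13.4% were lower and 18.1% were higher. Cd3g had 101, 106 and 102 CPM in ABAT cKO and 173, 173 and 176 CPM in WT, a log2 fold change of -0.76 (SE 0.04, edgeR adjusted p = 5.73e-07), the largest among the CD3 chains. Cd3e fell by 0.24 (SE 0.04, adjusted p = 0.00198) and Cd4 by 0.21 (SE 0.04, adjusted p = 0.00404) on the log2 scale. Cd3d, with 182 ± 6.55 CPM in ABAT cKO and 182 ± 6.04 CPM in WT, and Cd247, the zeta chain, with 150 ± 6.82 CPM in ABAT cKO and 138 ± 17.3 CPM in WT, did not pass (SD, n = 3 each). Cd8a and Cd8b1 made up the rest of the 5, and WT replicates 1 and 2 were the highest for both.

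Of the 84 J and D segments, 56 were tested. Trbd1, Trbj2-5 and Trbj2-6, all of the beta locus, fell, and 0 rose, where 13.4% of all genes tested were lower and 18.1% were higher. Trbd1, the D segment of the cluster of Trbc1, had 3.48, 3.20 and 3.38 CPM in ABAT cKO and 5.60, 4.94 and 5.76 CPM in WT. The median log2 fold change of the J and D segments was -0.41, close to that of the alpha V segments. Traj segments summed to 62.8, 29.7 and 27.6 CPM in ABAT cKO and 45.1, 49.9998 and 67.5 CPM in WT, so ABAT cKO replicate 1 and WT replicate 3 stood apart within their groups, whereas their Trac levels did not. The recombination genes were at or near 0. Rag2 had 0 counts in all libraries and Rag1 had 3, 3 and 0 counts in ABAT cKO and 2, 1 and 0 in WT. Dntt, which adds bases at the joints, had 14, 16 and 12 counts in ABAT cKO and 8, 12 and 6 in WT and did not pass (log2 fold change 0.84, SE 0.34, edgeR adjusted p = 0.0871).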

How the data were processed

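RNA was sequenced from 3 ABAT cKO and 3 WT samples after depletion of ribosomal RNA. The table deposited by the authors gives unnormalized whole-number counts of 54525 genes and 92 spike-in controls. It also holds the authors' size-factor scaled signal and, as deposited, their own log2 fold changes and adjusted p-values, and none of these was used here. The submitters' processing notes name Trim Galore 0.60, STAR 2.7 and RSEM 1.31, and the study's methods name another aligner and counter, so which made the counts is not settled, and the strand setting is not given in the sources used here. Reads of near-identical segments may therefore have been dropped or divided.

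Counts of the whole table were tested with edgeR 4.0.16 in R 4.3.3 (TMM, filterByExpr, quasi-likelihood test, genotype alone, Benjamini-Hochberg over 13605 genes). Spike-in counts, 0.817% to 1.00% of the total, stayed out. The biological coefficient of variation was 0.0589. For usage, family counts were tested in the same table with the V counts of the locus as library size. Fold changes are ABAT cKO over WT, and the scripts were tested on simulated data. Shares and sums used exact two-sided permutation tests over samples. Counting intervals cover counting error only. Segments were placed by identifier, 184 of 184 found, in the GENCODE M21 annotation of GRCm38, whose transcripts gave the sequences. Libraries of the same group differed from each other by more than sampling noise, most of all ABAT cKO replicate 1 and WT replicate 3. The chi-square per degree of freedom was 7.35 and 9.46 for pairs with ABAT cKO replicate 1 and 2.48 for the other ABAT cKO pair. For pairs with WT replicate 3 it was 6.21 and 7.09, and for the other WT pair 2.14.

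Named were the constant genes, gamma and delta genes passing the filter, the 8 Trav and 8 Trbv segments most abundant per kilobase, further called segments by smallest adjusted p (up to 4 a direction and locus), and the families Trav11, Trav1, Trav14 and Trbv12. Trav14-1, Trav16, Trav6-3 and the other families and low gamma and delta genes were named after their values were seen. Members and lists were chosen with earlier results of these data known. Alternatives were other scalings, filters, DESeq2 1.42.0, the replicate number as a block, other denominators and units of usage, and leaving out libraries.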

Additional observations from a re-analysis of the deposited data

How the results depend on the processing

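Of the counts of receptor genes called, 2 higher and 17 lower, the lower count stayed between 13 and 21 under every alternative but 1, with 7 without WT replicates 1 and 2 together, and the higher count stayed between 2 and 3 except for 4 without the filter on low counts and 1 for a minimum of 10 counts in all samples, where Tcrg-C4 was not tested. Leaving out each library in turn gave 2 to 3 higher and 13 to 17 lower. No same-numbered samples were shown to be paired, since the correlations of their deviations were -0.29, 0.12 and -0.28. Across the groups, the largest such correlation was 0.38, between ABAT cKO replicate 1 and WT replicate 3. A replicate block gave 2 higher and 14 lower receptor genes. The counts of families with changed usage stayed within 1.5 times the main count under 5 of 15 alternatives in each direction. Against 2 higher and 1 lower, it gave 0 to 3 higher and 0 to 3 lower without each library in turn, 1 and 0 with the replicate block, 1 and 3 as a share of all locus counts, 1 and 2 without the filter on low counts, and 2 and 2 for a minimum of 10 counts in all samples. Single segments gave 4 higher and 1 lower. Alternatives chosen after seeing the data gave 3 and 5 when WT replicate 3 and ABAT cKO replicate 1 were left out together, and 0 and 0 when WT replicates 1 and 2 were. The difference in the alpha effective number, ABAT cKO minus WT, was -0.15 and turned to 0.65 for families and ranged from -0.70 to 0.61 without each library in turn. The other values that changed sign had not passed their test. Without each library in turn, the log2 fold change of Trdv1 ranged from -0.0089 to 0.33, the log2 usage ratio of Trav1 from -0.37 to 0.17 and that of Trbv12 from -0.11 to 0.0076. That of Trav1 was 0.097 without WT replicates 1 and 2, and that of Trbv12 was 0.020 without ABAT cKO replicate 1 and WT replicate 3. The 4 locus differences kept their direction under all alternatives. The cause of these changes was not tested. Of the 129 alpha genes 59, and of the 11 gamma genes 7, had fewer than 10 counts over the 6 libraries and were not tested. The filter on low counts also removed others above that number, and it left 59 alpha genes and 1 gamma gene tested.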
